A study of Arabidopsis thaliana with 16 samples.

Results

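A set of 6 nuclear genes for parts of the photosynthetic apparatus was followed in Arabidopsis thaliana: PSBW (AT2G30570), PSBY (AT1G67740) and PSB27 (AT1G03600) of photosystem II, PSAN (AT5G64040) of photosystem I, LHB1B2 (AT2G34420) of the light-harvesting antenna and PRK (AT1G32060) of the Calvin cycle. They were chosen by name, with earlier results of these data known. Each has an array feature that the platform annotation pairs with that gene and with no other. They are 6 of the 692 single-gene features among 3439 features in all. All 6 passed the filter on low values, which kept a feature measured above 0 on 6 or more of a light's 8 columns, for both lights.

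RNA was compared between wild-type plants of the ecotype Landsberg kept in blue light and such plants kept in white light, for 48 hours and at 20 µE in both cases, per the labels. Each light has 8 array columns. The sources used here give neither the organ nor the age of the plants nor their light before the treatment, and no label says that the columns came from separate plants.

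Photosystem II splits water, and photosystem I passes the electrons on to ferredoxin. Antenna proteins bind chlorophyll and hand the absorbed energy to the reaction centres, and the Calvin cycle uses the resulting ATP and NADPH to fix carbon dioxide. Chlorophylls absorb blue as well as red light, and blue light is also sensed by the cryptochromes and phototropins. All 6 genes studied here lie in the nucleus, and their proteins are imported into the chloroplast.

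The deposited values are intensities, none below 0 and none above 100. Total signal per column ran from 3067 to 3735 in blue light and from 1044 to 3320 in white light, where columns 7 and 8 had the lowest totals. Columns 1 and 2, 3 and 4, 5 and 6, and 7 and 8 were averaged and counted as samples 1 to 4 of each light (n = 4). This averaging was set in advance, with earlier results of these data known. Each of the 16 columns resembled its neighbour in number more than any other column. The p-values therefore measure the spread between these samples, which may be technical, and the number of arrays limits the precision. As deposited, the median change over all 2864 tested features was 1.37 on the log2 scale, higher in blue light, so a change of a single gene depends on how the columns are scaled. With quantile normalization, the setting used for the tests, 456 features (15.9%) were higher and 471 (16.4%) were lower in blue light. As deposited, 97.2% of the calls were higher, and with each column scaled to its total signal 83.4% were.

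Of the 6 genes, PSBW had the lowest limma adjusted p with quantile normalization. With each column centred on its median, LHB1B2 had the lowest (limma adjusted p = 0.00269). With quantile normalization PSBW rose, PRK fell and 4 did not pass (limma, Benjamini-Hochberg adjusted p threshold of 0.05 over all tested features). The shares thus lie near those of all features. The median change of the 6 was -0.34 on the quantile-normalized log2 scale, against 0.00 over all tested features, which that normalization holds near 0. As deposited the median change of the 6 was 0.54, against 1.37 over all tested features. The plot of intensities by column shows the values as deposited.

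**Figure D1:**
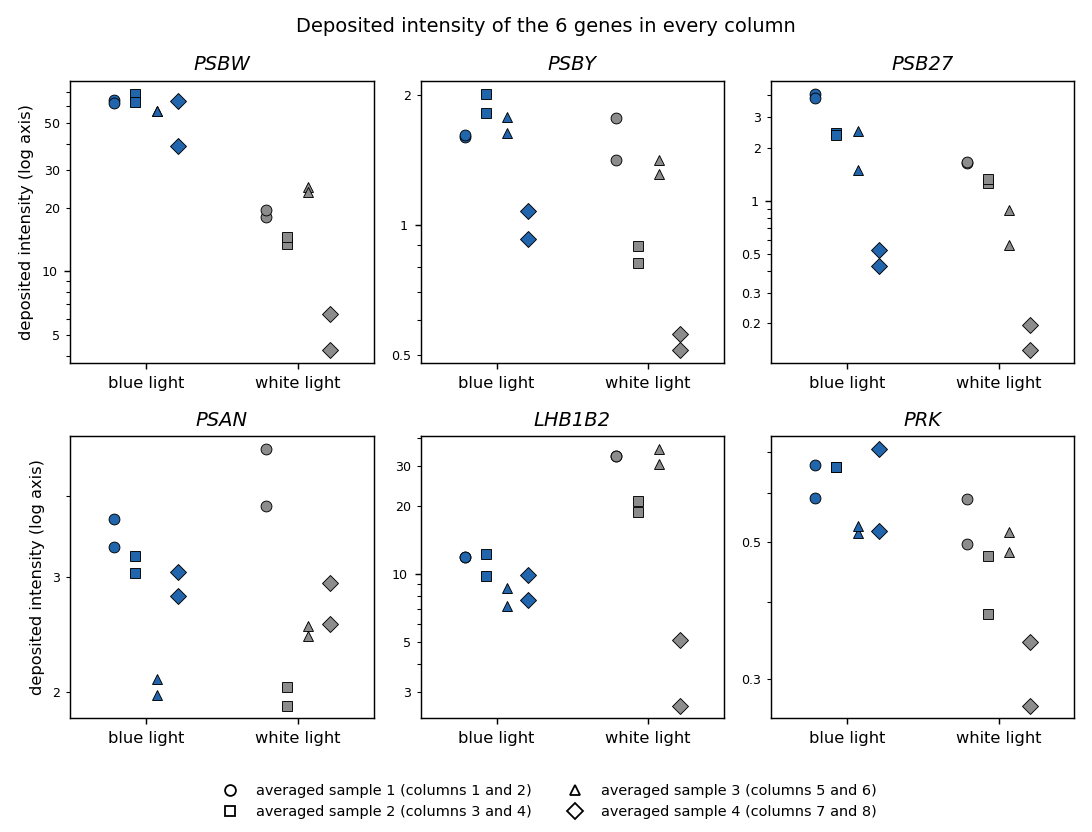
Deposited intensity (log axis, a separate range in each panel) of the 6 genes in every column, blue light on the left and white light on the right, with a symbol shape for each averaged sample. PSBW lies between 39.1 and 68.6 in all blue light columns, above all white light columns, while LHB1B2 is lower in blue light than in white light samples 1 to 3 but not sample 4.

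PSBW encodes a small membrane-spanning subunit of photosystem II, known for holding together the supercomplexes of photosystem II with its antenna. As geometric means of the neighbouring columns, its deposited intensity was 63.2, 65.7, 57.0 and 49.8 in blue light samples 1 to 4. In white light samples 1 to 4 it was 18.8, 14.0, 24.4 and 5.19. The groups did not overlap, which as deposited held, higher in blue light, for 49.5% of the 2757 features with a value in every averaged sample. After quantile normalization the log2 level averaged 5.93 ± 0.40 over the blue light samples and 3.80 ± 0.14 over the white light samples (SD, n = 4 each). In such bulk RNA, more cells of a type and more RNA per cell cannot be told apart. The rise was 2.13 on the log2 scale (SE 0.28, limma adjusted p = 0.00058). The quantile-normalized groups did not overlap either, as in 33.2% of the 2757 features in either direction. Blue light was therefore bound to be higher in 4 of 4 pairs of same-numbered samples. The feature was between the brightest and the 7th brightest of its column in blue light, and between the 21st and the 30th in white light. With each column centred on its median the change was 0.63 (SE 0.28, limma adjusted p = 0.105) and did not pass.

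LHB1B2 encodes a chlorophyll a/b-binding protein of the major antenna of photosystem II. It belongs to a family of near-identical LHCB1 genes, and the sequence of the spotted probe was not used here, so a contribution of its relatives to the signal cannot be told apart. Its deposited intensity was 11.9, 11.0, 7.92 and 8.70 in blue light samples 1 to 4. In white light samples 1 to 4 it was 33.2, 20.0, 33.1 and 3.67. White light sample 4 thus lay below all blue light samples, and the other white light samples above them. The change after quantile normalization was -0.86 (SE 0.36, limma adjusted p = 0.0925), which did not pass, although blue light was lower in each of the 4 numbered pairs. With the number as a block it passed at the same value (limma adjusted p = 0.0402). Without white light sample 4 the change was -1.23 (limma adjusted p = 0.00692), and without columns 7 and 8 of both lights it was -1.17 (limma adjusted p = 0.00858). It passed with median centring (-2.27) and with scaling to total signal (-1.49), but neither as deposited (-0.79, limma adjusted p = 0.315) nor with cyclic loess (-0.89, limma adjusted p = 0.0629). Of the 22 alternatives run, 16 left it short of the threshold.

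PRK encodes phosphoribulokinase, which makes the carbon dioxide acceptor ribulose bisphosphate. Its deposited intensity was 0.626, 0.661, 0.524 and 0.607 in blue light samples 1 to 4, against 0.540, 0.425, 0.500 and 0.306 in white light samples 1 to 4. The deposited values were thus higher in blue light in each numbered pair, by 0.48 on average on the log2 scale, against 1.37 for the median feature. After quantile normalization PRK averaged -1.47 ± 0.33 in blue light and -0.56 ± 0.35 in white light (log2, SD, n = 4 each), without overlap, as in 33.2% of the 2757 features in either direction. It fell by 0.91 (SE 0.29, limma adjusted p = 0.0348). PRK also passed with median centring (-1.01, limma adjusted p = 0.0206) and with cyclic loess (-0.94, limma adjusted p = 0.0346). With the number as a block it passed at -0.91 (limma adjusted p = 0.0131). It did not pass scaled to total signal (-0.22) or as deposited (0.48). Its call also ended when blue light sample 1, 2 or 3 or white light sample 2, 3 or 4 was left out (log2 changes from -0.96 to -0.75).

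PSBY, a small subunit of photosystem II that sits beside cytochrome b559, had deposited intensities of 1.61, 1.92, 1.71 and 0.9998 in blue light and of 1.58, 0.854, 1.37 and 0.534 in white light (samples 1 to 4). The ranges overlapped, and blue light was higher as deposited in every numbered pair, in pair 1 by 0.03 on the log2 scale. After quantile normalization the change was -0.27 (SE 0.26, limma adjusted p = 0.451). With median centring it was -0.88 and passed (limma adjusted p = 0.0223).

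PSB27, a lumenal protein that takes part in the assembly and repair of photosystem II, varied most of the 6 between samples of the same light after quantile normalization (SD 1.37 over blue light and 0.75 over white light samples). Its deposited intensity was 3.95, 2.40, 1.93 and 0.475 in blue light samples 1 to 4, against 1.66, 1.29, 0.708 and 0.166 in white light samples 1 to 4. Sample 4 was the lowest in both lights and sample 1 the highest, so the groups overlapped. Within the numbered pairs blue light was higher as deposited by 0.90 to 1.51 on the log2 scale. The quantile-normalized change was 0.44 (SE 0.63, limma adjusted p = 0.617) and did not pass, and with median centring it was -0.21. It was 0.0060 without blue light sample 1 and 1.08 without blue light sample 4, and passed in neither case.

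PSAN, a lumenal subunit of photosystem I near the site where plastocyanin docks, was at 3.51, 3.13, 2.03 and 2.93 in blue light and at 4.27, 1.97, 2.48 and 2.74 in white light (deposited intensity, samples 1 to 4). Blue light was higher in 2 of the 4 numbered pairs. The quantile-normalized change was -0.41 (SE 0.39, limma adjusted p = 0.451). With median centring it was -1.43 and passed (limma adjusted p = 0.0156).

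Relative to the median of all tested features, the 3 scalings that multiply a column by a constant (none, median centring, total signal) gave nearly the same values. This is bound to be so, since a constant shifts all features of a column alike on the log2 scale. As deposited, PSBW changed by 0.75 more than the median feature on the log2 scale. PSB27 (-0.09), PSBY (-0.76), PRK (-0.89), PSAN (-1.31) and LHB1B2 (-2.15) changed by less than it. The deposited change of PSBW, 2.12, lay beside the upper quartile of all tested features, 2.11. The 5% of features with the highest mean intensity, which hold PSBW, LHB1B2 and PSAN, had a median deposited change of 0.24, against 1.37 over all features. Quantile normalization and cyclic loess take account of such a dependence on level, and constant factors do not.

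**Figure D2:**
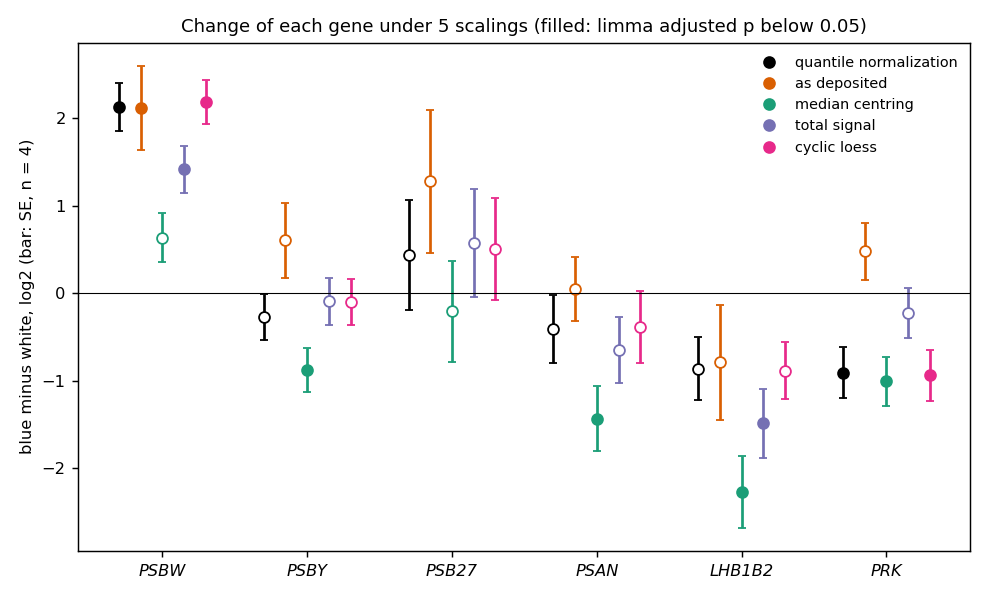
Blue minus white log2 change of each gene (vertical axis, bars are SE, n = 4) under 5 scalings, filled where the limma adjusted p was below 0.05. PSBW is above 0 and LHB1B2 below 0 under all 5, from 0.63 to 2.18 and from -2.27 to -0.79, while PSBY, PSB27, PSAN and PRK each change sign under at least 1 scaling.

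Ratios between these genes within a column do not depend on a factor common to that column, so they were taken on the deposited intensities. The dependence on level described above does not cancel in them. With quantile normalization PSBW to PRK differed by 3.04 and LHB1B2 to PRK by 0.046 on the log2 scale, against 1.64 and -1.26 as deposited. A ratio of 2 features also holds the properties of the 2 probes. Only its difference between the lights is therefore read, as unequal change of the deposited intensities. The 15 ratios were compared by exact two-sided permutation tests over the averaged samples, for which 4 against 4 allows no p below 0.0286. With adjustment over the 15 ratios, 0 passed (Benjamini-Hochberg adjusted exact permutation p of at least 0.107), and 4 had an unadjusted exact permutation p of 0.0286. In those 4 (26.7%) the light groups did not overlap, a share near the 31.3% found over 153735 ratios between the 555 tested single-gene features with a value in every averaged sample. In 2 of them (13.3%) the ratio also differed by at least 4-fold, against 16.3% of all such ratios.

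The 4 ratios all had PSBW as a partner, whose own deposited groups did not overlap, so they are not 4 separate results. PSBW to LHB1B2 was 5.30, 5.98, 7.20 and 5.72 in blue light samples 1 to 4, and 0.564, 0.702, 0.736 and 1.41 in white light samples 1 to 4. Over single columns the ratio ran from 5.11 to 7.90 in blue light and from 0.540 to 1.63 in white light, so all blue light columns lay above all white light columns. On the log2 scale the ratio averaged 2.59 ± 0.19 in blue light and -0.32 ± 0.57 in white light (SD, n = 4 each). The difference was 2.91 (SE 0.30, exact permutation p = 0.0286), and within the numbered pairs it ran from 2.02 to 3.29. That p and the sign in 4 of 4 pairs both follow from groups that do not overlap. It stayed between 2.74 and 3.20 over the 13 alternatives run.

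**Figure D3:**
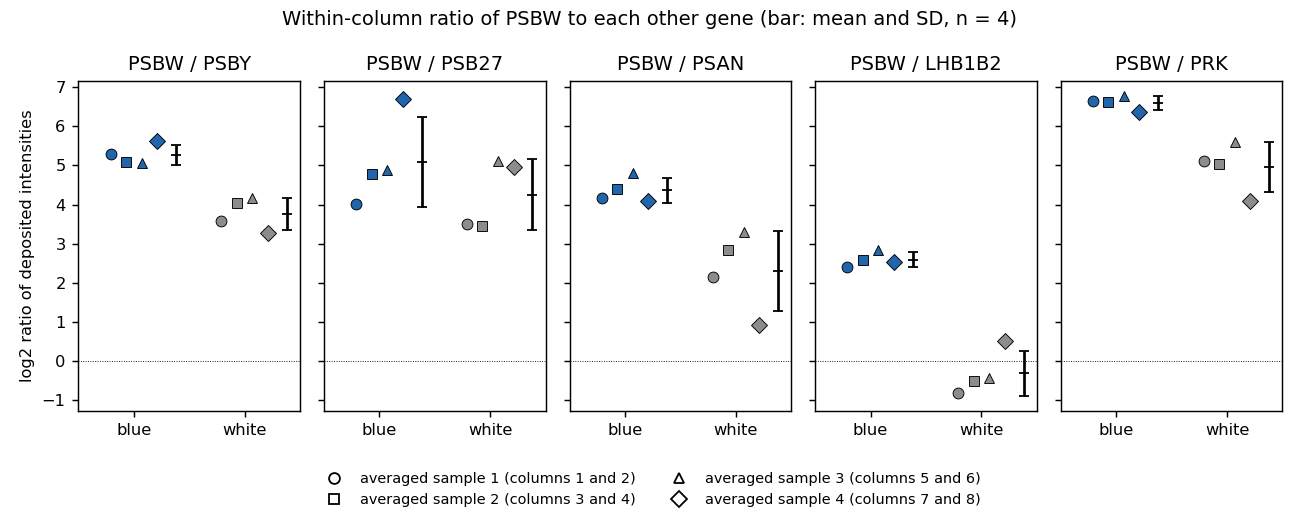
Log2 ratio of PSBW to each other gene within the columns (deposited intensities), per averaged sample, blue light on the left and white light on the right of each panel, with mean and SD (n = 4). The groups are apart for PSBY, PSAN, LHB1B2 and PRK and overlap for PSB27.

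PSBW to PSAN, a ratio between subunits of the 2 photosystems, was 18.0, 21.0, 28.0 and 17.0 in blue light and 4.40, 7.12, 9.81 and 1.90 in white light (samples 1 to 4). The lowest blue light value lay above the highest white light value, with a log2 difference of 2.07 (SE 0.54, exact permutation p = 0.0286). PSBW to PRK was 101, 99.5, 109 and 82.0 in blue light, against 34.7, 32.9, 48.7 and 17.0 in white light, a difference of 1.64 (SE 0.33, exact permutation p = 0.0286). PSBW to PSBY, within photosystem II, was 39.2, 34.3, 33.4 and 49.8 in blue light, against 11.9, 16.4, 17.8 and 9.71 in white light, a difference of 1.51 (SE 0.24, exact permutation p = 0.0286). In each of these ratios blue light was higher in 4 of 4 numbered pairs, which follows from groups that do not overlap and adds nothing to it. In 8 of the 15 ratios all pairs went the same way. Exchanging labels within the pairs cannot give an exact permutation p below 0.125. PSBW to PSB27 differed by 0.84 (SE 0.73, exact permutation p = 0.286), with groups that overlapped, and this difference was 0.30 without blue light sample 4 and 1.21 without blue light sample 1.

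Among the other 10 ratios, LHB1B2 was the partner in the 3 with the largest differences. PSB27 to LHB1B2 was 0.331, 0.219, 0.243 and 0.0546 in blue light samples 1 to 4, against 0.0498, 0.0648, 0.0214 and 0.0454 in white light samples 1 to 4. The log2 difference was 2.06 (SE 0.67, exact permutation p = 0.0571), and blue light sample 4 lay within the white light values. PSBY to LHB1B2 differed by 1.39 (SE 0.48, exact permutation p = 0.0857), and LHB1B2 to PRK by -1.26 (SE 0.58, exact permutation p = 0.143). Without white light sample 4 these 2 differences were 1.83 and -1.83, that of PSAN to LHB1B2 was 1.57 against 0.84 with it, and the groups of all 3 then no longer overlapped. Without white light sample 4 or without blue light sample 4, 7 of the 15 ratios had groups that did not overlap, and without both 10 of the 15 had. Smaller groups fail to overlap more often by chance, and the share over all single-gene ratios was not computed at these settings. PSBY to PRK showed the smallest difference, 0.13 (SE 0.28, exact permutation p = 0.743).

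**Figure D4:**
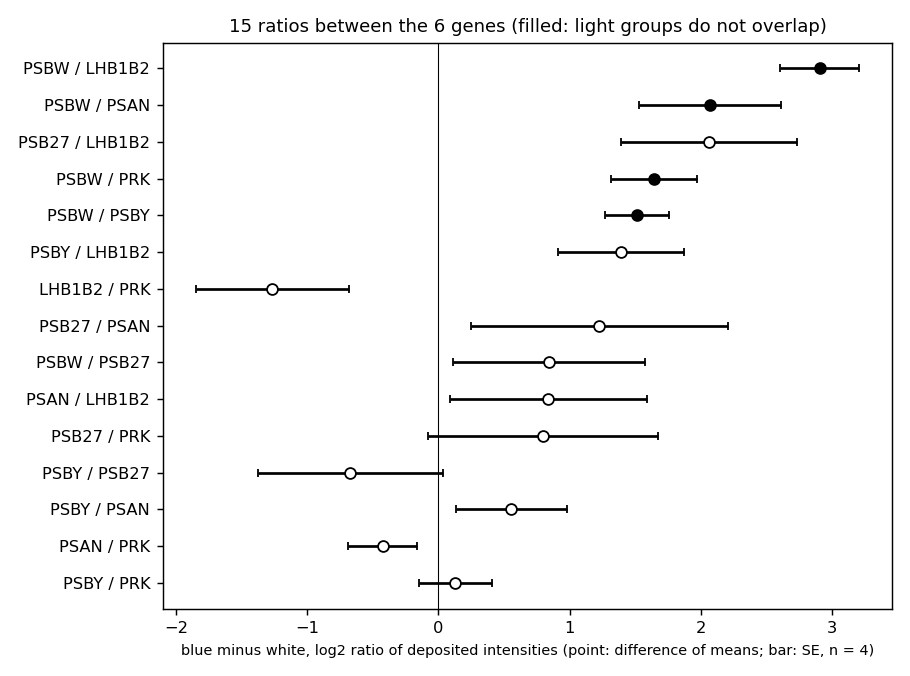
Blue minus white difference of the log2 ratio (horizontal axis, bars are SE, n = 4) for the 15 ratios between the 6 genes, filled where the light groups do not overlap. The 4 filled points are PSBW to LHB1B2, PSAN, PRK and PSBY, between 1.51 and 2.91.

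Few of the other listed photosynthesis genes could be read from single-gene features. Of 89 genes in lists for photosystem II, photosystem I, the antenna, electron carriers, the plastid ATP synthase and the Calvin cycle, 7 had a single-gene feature, 8 shared a feature with other genes and 74 had none in the annotation. The 7 are the 6 genes described above and SBPASE, the sedoheptulose bisphosphatase of the Calvin cycle. SBPASE was listed at 0 in all 8 blue light columns and in 7 of the 8 white light columns, and was not tested. None of 10 light receptor and early light response genes and none of 6 seed, flower and senescence markers had a single-gene feature, so the organ could not be checked.

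The single-gene features whose pattern was most like each of the 6 were found by Pearson's r over the 8 averaged samples (quantile-normalized log2 values, 549 candidates). Such a correlation across samples of both lights also holds the difference between the lights, and it is a description with no test. PSBW was matched most closely by AT4G27510 (r = 0.993) and AT3G16310 (r = 0.991). For PRK these were AT3G09490 (r = 0.982) and AT5G05330 (r = 0.979), and for LHB1B2 AT1G28150 (r = 0.982) and AT3G06200 (r = 0.954). PSBY was most like AT4G39760 (r = 0.904) and THIC, an enzyme of thiamine synthesis (r = 0.891). PSB27 was most like CCL (r = 0.927) and the histone H3 gene AT1G09200 (r = 0.903). PSAN was most like AT1G05860 (r = 0.900) and AT1G74470, the geranylgeranyl reductase of chlorophyll and tocopherol synthesis (r = 0.852). These likenesses depend on the scaling. As deposited r was 0.036 for AT5G05330 with PRK, and scaled to total signal it was 0.13 for CCL with PSB27, 0.35 for AT4G39760 with PSBY and 0.36 for AT1G28150 with LHB1B2. For PSBW, the lowest r over the alternatives run was 0.81 with AT4G27510 and 0.73 with AT3G16310.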

How the data were processed

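Arrays of total RNA were deposited as a table of linear intensity values, 3439 features by 16 columns. No source used here states the authors' image processing, background correction or scaling; from the deposited intensity values, 9 columns reach 100 and none exceeds it. Gene names come from the platform's annotation (of unknown currency) and the TAIR10.1 gene table (690 of 692 single-gene features matched); no coordinates are given, because no build is named for the annotation.

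Entries of 0 were treated as missing, values were put on the log2 scale, and the 2864 features with 6 or more values above 0 in both lights were quantile normalized. Neighbouring columns were averaged. Blue minus white was fitted with limma 3.58.1 (lmFit, eBayes, two-sided) in R 4.3.3, with no covariate, and adjusted over all tested features. Ratios used deposited intensities and exact permutation tests. The fit was tested on simulated data with independent samples, no pairs and no dependence of the change on level, so it was not checked for those. The genes, gene lists, averaging and tests were chosen with earlier results of these data known. Genes named were the 6 members, other list genes with a single-gene feature, and the 2 features most correlated with each member.

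Same-numbered averaged samples deviated together from their group means (correlations across features from 0.18 to 0.45, against -0.25 to 0.10 between other numbers), so same-numbered samples count as pairs, by a limit of 0.1 in every pair; the labels do not say what they share. Blue light sample 1 with white light sample 3 also exceeded that limit, at 0.104. The main fit has no block, and the exact permutation p-values of 0.0286 take the samples as unpaired, so neither takes account of these pairs. Alternatives covered scaling, low values (pseudocount 0.0764), filters, a replicate block, the model of the variance, a permutation test, 16 separate columns and each averaged sample left out.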

Additional observations from a re-analysis of the deposited data

Results flagged for a closer look

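Over the levels of the 6 genes, quantile-normalized and as deposited, and their 15 ratios, 54 groups of 4 averaged samples were examined. In 3 groups the highest or lowest sample stood apart, relative to the range of its group. About 5% of groups would by chance alone, and 3 of 54 lies near that share. The groups share genes and are not independent. For PSBY in white light it was sample 4, at 0.54 on the quantile-normalized log2 scale, where samples 1 to 3 lay between 0.35 and 0.36. For PSAN in blue light it was sample 3, at 0.55 on the same scale, where the remaining samples lay between 1.40 and 1.55. For the log2 ratio of PSBY to LHB1B2 in white light it was sample 4, at -2.78, where samples 1 to 3 lay between -4.60 and -4.39. White light sample 4 (columns 7 and 8) also had the lowest total signal, 1044 in each column, and its part in these values was not tested.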

How the results depend on the processing

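Without normalization PSBY (0.61), PSAN (0.050) and PRK (0.48) turned direction and did not pass, and 1530 features were higher and 44 lower. With median centring PSBW (0.63) no longer passed, PSB27 (-0.21) turned direction, and PSBY (-0.88), PSAN (-1.43) and LHB1B2 (-2.27) passed. Scaled to total signal LHB1B2 (-1.49) passed, PRK (-0.22) did not, and 1074 features were higher and 213 lower. With 16 separate columns LHB1B2 passed at -0.86 (limma adjusted p = 0.0111), with 734 features higher and 749 lower. The replicate block made LHB1B2 pass (-0.86) and changed no other call of the 6 genes. Without columns 7 and 8 of both lights LHB1B2 was at -1.17 and passed, and 10 of the 15 ratios had groups that did not overlap. With each averaged sample left out in turn, PSBW ran from 2.01 to 2.27 and passed each time, LHB1B2 from -1.23 to -0.68, PRK from -1.07 to -0.75, PSBY from -0.43 to -0.15, PSB27 from 0.01 to 1.08 and PSAN from -0.59 to -0.07. Features higher then ran from 321 to 501, features lower from 329 to 494, and ratios without overlap from 4 to 7. The share of all single-gene ratios without overlap was not computed with samples left out. Among single ratios, quantile normalization turned PSAN to PRK (0.50) and LHB1B2 to PRK (0.046), and PSBY to PRK ran from -0.0032 (without white light sample 4) to 0.33 over the omitted samples. The cause of these changes was not tested.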
